A study of Mus musculus with 24 samples.

Results

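The genes described here encode the nuclear subunits of respiratory complexes II to V, measured by RNA-seq in mouse gastrocnemius muscle. They were taken from the deposited gene table by symbol: Sdha to Sdhd for complex II, symbols that begin with Uqcr together with Cyc1 for complex III, Cox4 to Cox8 symbols for complex IV, and Atp5 symbols for complex V. Of 36172 gene models, 50 matched, and 45 of these reached a mean of 10 estimated counts over the 24 libraries: 4 in complex II, 9 in complex III, 15 in complex IV and 17 in complex V. The 5 below the minimum were Cox6b2, with a mean of 7.22 counts, and Cox7b2, Cox8c, Atp5l2 and Atp5l-ps1. Some matched symbols are not subunits in current naming. Atp5s is now Dmac2l and Atp5sl is now Dmac2, neither of which is an ATP synthase subunit, and Cox7a2l is a supercomplex assembly factor.

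The study compared C57BL/6 mice of 2 genotypes under 3 conditions, with 4 libraries in each of the 6 groups. Notch2-mKO mice were Mlc1fCre/+;Notch2f/f, in which Cre is expressed from the myosin light chain 1f locus that is active in muscle fibres, so that cells other than fibres should keep Notch2. WT mice were Notch2f/f and carried the same floxed alleles without Cre. Within each genotype the conditions were diabetes, 14 days after a single intraperitoneal dose of 150 mg/kg streptozotocin, which kills the insulin-producing beta cells; unloading, 7 days of hindlimb suspension; and a control. The sources used here give no ages. The diabetes and unloading comparisons within a genotype share the same control libraries, and the comparisons in Notch2-mKO and WT mice share none.

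Complex II, succinate dehydrogenase, passes electrons from succinate of the citric acid cycle to ubiquinone. Complex III hands them on to cytochrome c, complex IV uses them to reduce oxygen, and the proton gradient that complexes III and IV help to build drives ATP synthesis by complex V. Several subunits of complex IV exist as paired isoforms, one of which is typical of heart and skeletal muscle, and slow and fast oxidative fibres hold more of these complexes than fast glycolytic fibres. Complexes III, IV and V also contain subunits encoded in mitochondrial DNA, and these are outside the genes described here.

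The promoters of 35 of the 45 genes, in 39 windows running from 250 bases before to 50 bases after the start, were found in the RefSeq promoter table for GRCm38.p6. Fixed words typical of factors linked to mitochondrial or muscle genes were searched on both strands. The NRF1 word (GCGC, any base, then TGCGC) was present in 10 of the 35 genes (28.6%), against 5.19% of all 27025 genes in the table. The ETS word CCGGAAG, which can share AAG with the YY1 word, was present in 12 (34.3%, against 9.93% of all genes), the ERR word AAGGTCA in 5 (14.3%, against 5.38%) and the YY1 word AAGATGGC in 4 (11.4%, against 3.19%). The MEF2 word (CTA, any 4 bases, then TAG) was present in 1 gene, Cox5b (2.86%, against 4.23%), and the E-box CAGCTG in 2, Atp5b and Cox8b (5.71%, against 18.3%). A match is only a match of letters, and CpG-rich promoters were not separated from the rest. The stretches shown run from 100 bases before the start to 30 bases from it, 5′ to 3′ on the gene's own strand, with the searched words in capitals. They belong to genes that changed in most comparisons and show different patterns of words. Sdhb lies at chr4:140961171-140961300 (plus strand) and Uqcrh at chr4:116075041-116075170 (minus strand), each with an ETS word. Cox7a1 lies at chr7:30184071-30184200 (plus strand), with none of the 6 words, and Cox8b at chr7:140900417-140900546 (minus strand), with a pair of E-boxes. Atp5g3 lies at chr2:73911297-73911426 (minus strand), with an ERR and an NRF1 word, and Atp5k at chr5:108434370-108434499 (minus strand), with an NRF1, an ETS and an ERR word.
Sdhb: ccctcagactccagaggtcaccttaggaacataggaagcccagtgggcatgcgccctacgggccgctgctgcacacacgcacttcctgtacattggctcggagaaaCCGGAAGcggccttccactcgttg
Uqcrh: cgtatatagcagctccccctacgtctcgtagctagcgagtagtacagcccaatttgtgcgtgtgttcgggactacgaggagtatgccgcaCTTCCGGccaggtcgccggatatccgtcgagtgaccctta
Cox7a1: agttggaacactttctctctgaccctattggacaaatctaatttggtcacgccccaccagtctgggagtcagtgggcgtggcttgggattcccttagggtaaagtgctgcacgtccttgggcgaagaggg
Cox8b: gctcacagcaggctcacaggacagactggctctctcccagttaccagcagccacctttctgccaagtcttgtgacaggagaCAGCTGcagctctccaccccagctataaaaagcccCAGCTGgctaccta
Atp5g3: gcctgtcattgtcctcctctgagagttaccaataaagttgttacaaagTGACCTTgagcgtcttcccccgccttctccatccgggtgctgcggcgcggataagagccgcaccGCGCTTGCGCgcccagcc
Atp5k: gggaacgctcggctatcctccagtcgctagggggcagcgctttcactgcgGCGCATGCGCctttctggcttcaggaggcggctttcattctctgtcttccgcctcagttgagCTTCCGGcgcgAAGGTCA

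Each library held 33112459 to 56369917 estimated counts, so that a count of 0 allows up to 0.0906 CPM (counts scaled to a library of fixed size) in the shallowest one, as counting error only. CPM here uses the TMM factors of edgeR, except in the base composition values and the cell markers below. Notch2 itself, which is also expressed outside fibres, was at 1.87 ± 0.584 CPM in Notch2-mKO controls and 1.84 ± 0.0680 CPM in WT controls (SD, n = 4 each), and its whole-gene total does not check a deletion that is limited to fibres. Replicates within a group correlated at 0.969 to 0.987 across genes. The labels do not say that replicates are separate animals, so p-values measure the spread between these libraries. Some libraries stood apart over most of the 45 genes: WT diabetes replicate 3 was the lowest of its 4 libraries in 39 genes, and so were WT unloading replicate 1 in 39 and Notch2-mKO unloading replicate 1 in 36. WT control replicate 3 was the highest of its group in 33 and Notch2-mKO control replicate 3 in 34. The libraries also differed in base composition. The mean log2 CPM of 759 AT-rich genes (under 42% GC) minus that of 1962 GC-rich genes (over 56% GC) in the same library was -0.464 ± 0.142 in diabetes, -0.549 ± 0.218 after unloading and -0.865 ± 0.255 in controls of Notch2-mKO mice, and -0.236 ± 0.134, -0.173 ± 0.0637 and -1.18 ± 0.322 in diabetes, unloading and controls of WT mice. Every treated group was thus shifted towards AT-rich genes relative to its controls, and results are given with and without that trend where it matters.

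Per kilobase of transcript, the genes spanned almost 3 orders of magnitude in WT controls. The muscle isoform Cox6a2 was the highest of the 45 at 1742 CPM per kb, followed by the catalytic beta subunit Atp5b (1475), the main complex IV subunit isoform Cox4i1 (1316), the c-ring gene Atp5g1 (1122) and the alpha subunit Atp5a1 (1022). At the low end stood the non-muscle isoforms Cox8a (60.6) and Cox6a1 (41.7), then Atp5sl (21.0), Atp5s (3.53) and Cox4i2 (2.49 CPM per kb). In complex II, the iron-sulfur subunit Sdhb had the highest level (349 CPM per kb), above the flavoprotein Sdha (208) and the membrane anchors Sdhd (114) and Sdhc (110.5). The order per kilobase rests on the length of the single transcript chosen for each gene. Before division by length, Sdhb was below Sdha, with a ratio of counts of 0.670 ± 0.116 in WT controls. In complex III, the core protein Uqcrc1 was the highest (545 CPM per kb) and its partner Uqcrc2 the lowest (173 CPM per kb).

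Together, the 45 genes took a smaller share of all counts in both treated conditions than in controls. In Notch2-mKO mice they held 1.68 ± 0.128% of all estimated counts in diabetes and 1.74 ± 0.0976% after unloading, against 2.01 ± 0.0473% in controls (SD, n = 4 each). In WT mice they held 1.57 ± 0.182% in diabetes and 1.69 ± 0.114% after unloading, against 1.95 ± 0.0461% in controls. The treated and control libraries did not overlap in any of these 4 comparisons: the highest treated library held 1.89% in Notch2-mKO and 1.76% in WT mice, and the lowest control library 1.95% in Notch2-mKO and 1.91% in WT mice. In whole muscle, fewer fibres of a type and less of an RNA in each fibre cannot be told apart.

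Complex V made up more than the other complexes combined, with a share of 0.921 ± 0.070% in diabetes, 0.951 ± 0.0542% after unloading and 1.09 ± 0.0251% in controls of Notch2-mKO mice, and 0.876 ± 0.0924%, 0.919 ± 0.0707% and 1.05 ± 0.029% in the same order in WT mice. Complex IV took 0.373 ± 0.0204% in diabetes, 0.410 ± 0.0239% after unloading and 0.469 ± 0.0127% in controls of Notch2-mKO mice, and 0.325 ± 0.0312%, 0.399 ± 0.0259% and 0.463 ± 0.0133% in WT mice. Complex III took 0.252 ± 0.0231%, 0.252 ± 0.0172% and 0.304 ± 0.0093% in Notch2-mKO mice, and 0.233 ± 0.0412%, 0.244 ± 0.0172% and 0.296 ± 0.0071% in WT mice. For these 3 complexes no treated library overlapped the controls of its genotype. Complex II was the exception. Its share was 0.133 ± 0.0205% in diabetes and 0.131 ± 0.0058% after unloading, against 0.140 ± 0.0066% in controls of WT mice, with overlap in both. In Notch2-mKO mice it was 0.135 ± 0.0165% in diabetes and 0.129 ± 0.0093% after unloading, against 0.153 ± 0.0065% in controls, with overlap in diabetes only.

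**Figure D1:**
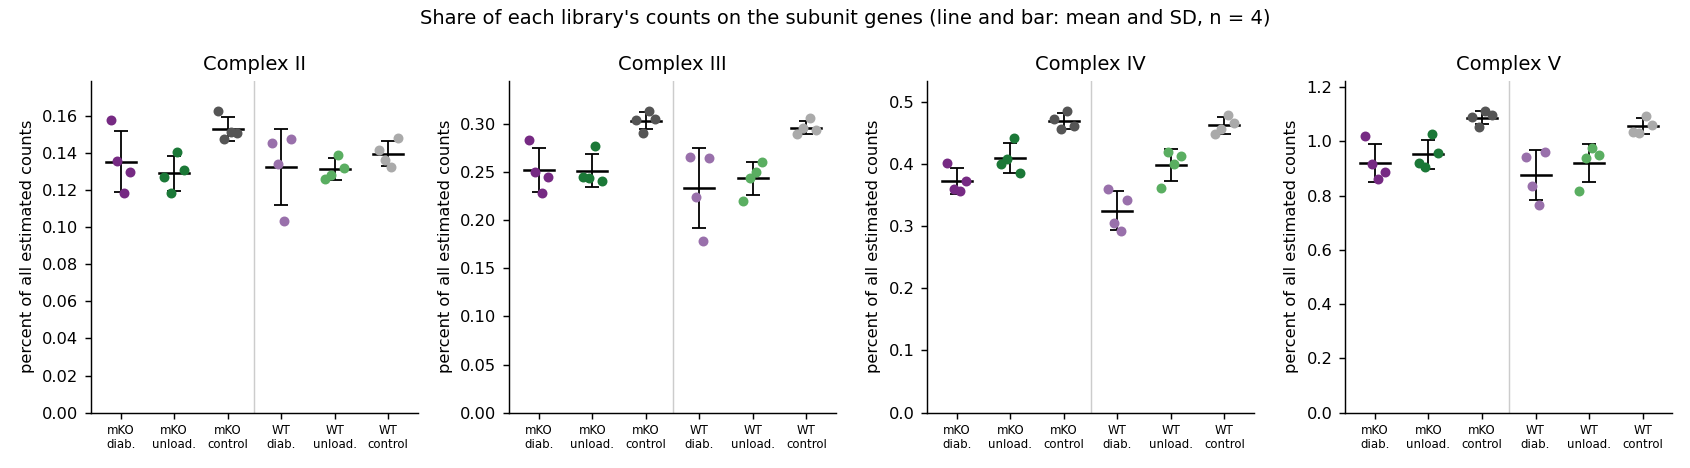
Share of all estimated counts held by the genes of each complex, in percent, with 1 point per library and the mean and SD of each group of 4. The genes of complexes III, IV and V take a smaller share in treated than in control libraries of both genotypes, while complex II overlaps in diabetes of both genotypes and in WT unloading; its WT group means lie between 0.131% and 0.140%.

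In edgeR's quasi-likelihood test over 13048 genes, at an adjusted p of 0.05, the changes were almost all downward. In Notch2-mKO mice, 12 of the 45 genes fell in diabetes and none rose, where 5.59% of all genes tested were called, 2.54% lower and 3.05% higher. The 45 genes had a median log2 fold change of -0.33, against -0.01 for all genes. Unloading of Notch2-mKO mice also lowered 12 of 45 and raised none, where 7.31% of all genes were called, 3.2% lower and 4.11% higher, and the median of the 45 was -0.29. In WT mice, 33 of 45 fell in diabetes and none rose, where 33.4% of all genes were called, 15.5% lower and 17.8% higher. Their median was -0.56. Unloading of WT mice lowered 27 of 45 and raised 2, Cox6c and Atp5s, where 34.7% of all genes were called, 16.3% lower and 18.4% higher. Their median was -0.46. Values below 0 were seen for 42 and 43 of the 45 genes in diabetes and unloading of Notch2-mKO mice, and for 41 and 41 in WT mice. The shares of all genes below 0, and the all-gene medians of the comparisons other than diabetes of Notch2-mKO mice, are not given here.

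These falls were spread over the complexes. In diabetes of Notch2-mKO mice, the lower calls were 0 of 4 genes in complex II, 2 of 9 in complex III, 7 of 15 in complex IV and 3 of 17 in complex V, and after unloading they were 2, 3, 3 and 4 in the same complexes. In WT mice they were 2, 6, 12 and 13 in diabetes and 2, 4, 10 and 11 after unloading. Complex IV had the most negative median in diabetes in both genotypes, -0.43 in Notch2-mKO and -0.62 in WT mice. The medians of complex II, III and V in diabetes were -0.24, -0.29 and -0.33 in Notch2-mKO mice and -0.26, -0.56 and -0.48 in WT mice. After unloading, the medians of complexes II to V were -0.44, -0.30, -0.29 and -0.29 in Notch2-mKO mice and -0.47, -0.33, -0.49 and -0.46 in WT mice.

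All 12 genes lowered by diabetes in Notch2-mKO mice were among the 33 lowered in WT mice (100% and 36.4% of each list), and 11 of the 12 lowered by unloading in Notch2-mKO mice were among the 27 lowered in WT mice (91.7% and 40.7%), the exception being Uqcr11. In Notch2-mKO mice the counts rested on single libraries. The diabetes count was 4 without any 1 of diabetes replicates 2, 3 and 4, 6 without control replicate 3 and 5 without control replicate 4, and the unloading count was 5 without control replicate 3, 6 without unloading replicate 1 and 18 without unloading replicate 3. Whichever library was left out, Atp5g1, Atp5k, Cox5b and Cox8b remained called in diabetes of Notch2-mKO mice, and Atp5g1, Atp5g3, Atp5k, Sdhb and Uqcrh after their unloading. In WT mice, 27 genes in diabetes and 24 after unloading remained called. The authors' deposited log2 values lie higher in treated than in control libraries by a median of 0.26 (diabetes) and 0.25 (unloading) in WT mice and by 0.13 and 0.13 in Notch2-mKO mice relative to TMM. On those values limma called 21 lower and 2 higher in diabetes and 13 lower and 5 higher after unloading of WT mice. The medians of the 45 remained below 0, at -0.31 and -0.20. In these WT comparisons the shift from TMM was 0.257 and 0.251 for the 45 genes, and 0.262 and 0.251 for all 13048 genes. The share of all genes that limma called is not given here.

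**Figure D2:**
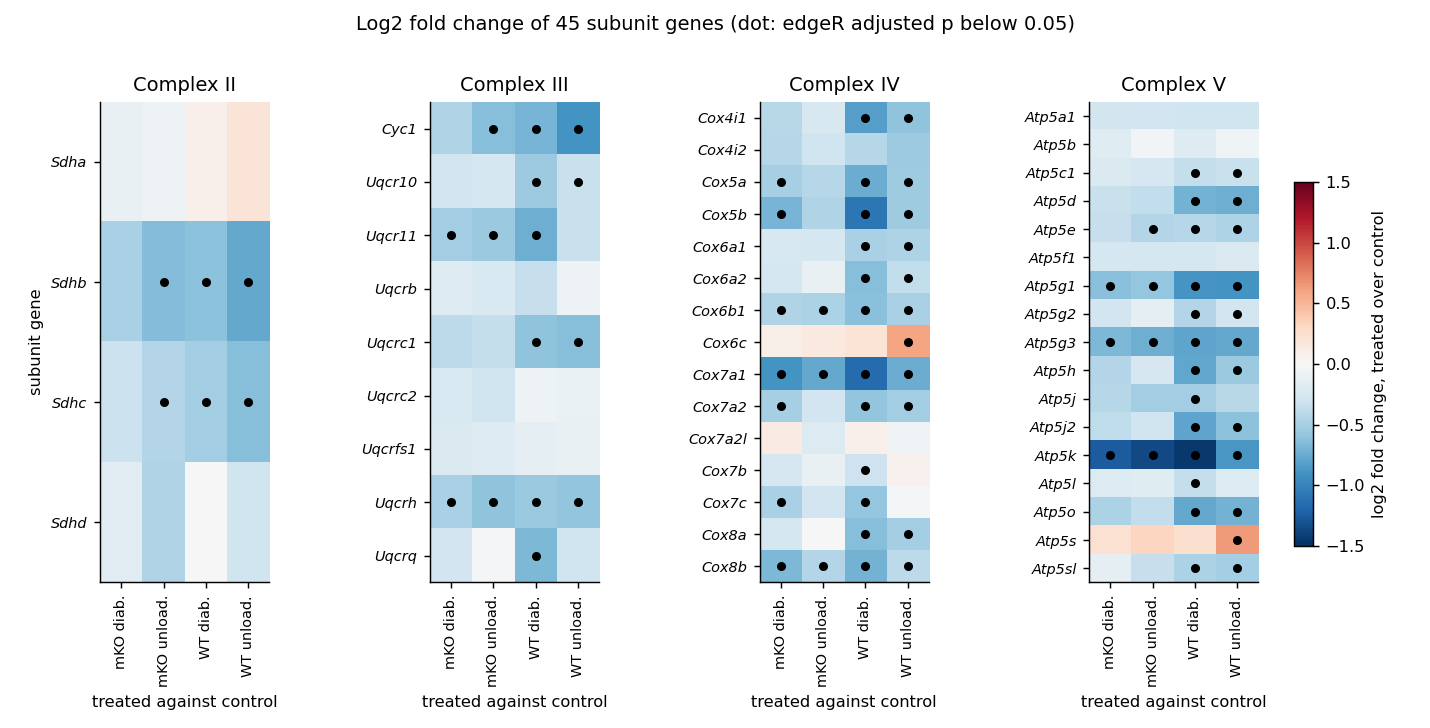
Log2 fold change of each of the 45 genes, by complex, in diabetes and unloading against control, with Notch2-mKO left of WT; a dot marks an adjusted p under 0.05. Most cells are below 0, Atp5k has the most negative value in diabetes in both genotypes, -1.25 and -1.45, and Cox6c and Atp5s are the genes that rose, after unloading of WT mice.

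In complex II, the iron-sulfur subunit and a membrane anchor fell while the catalytic subunit did not pass the test in any comparison. Sdhb, which carries electrons from the flavoprotein to ubiquinone and lies at 140961271 to 140979198 on chromosome 4 (GRCm38.p6), measured 331, 290.2, 267 and 274 CPM in diabetes and 184, 246, 315 and 292 CPM after unloading, against 406, 418, 418 and 392 CPM in controls of Notch2-mKO mice. In WT mice, Sdhb measured 301, 255, 177 and 309 CPM in diabetes and 201, 237, 250.004 and 251 CPM after unloading, against 432, 377, 426 and 359 CPM in controls. The treated libraries lay below every control library in both genotypes. The log2 fold changes of Sdhb were -0.49 (SE 0.152, adjusted p = 0.055) in diabetes and -0.66 (SE 0.152, adjusted p = 0.0129) after unloading of Notch2-mKO mice, and -0.61 (SE 0.152, adjusted p = 0.00308) and -0.76 (SE 0.152, adjusted p = 0.000426) in WT mice. The change in diabetes of Notch2-mKO mice missed the threshold. Sdhc, a membrane anchor that helps to form the ubiquinone site, measured 288, 267, 265 and 269 CPM in diabetes and 217, 245, 274 and 267 CPM after unloading, against 305, 358, 358 and 337 CPM in controls of Notch2-mKO mice. Its values in WT mice were 290.3, 245, 159 and 284 CPM in diabetes and 197, 213, 243 and 249.6 CPM after unloading, against 357, 329, 393 and 323 CPM in controls. Again no treated library reached the control range. Sdhc had log2 fold changes of -0.32 (SE 0.136, adjusted p = 0.162) in diabetes and -0.44 (SE 0.136, adjusted p = 0.0494) after unloading of Notch2-mKO mice, and -0.52 (SE 0.136, adjusted p = 0.00491) and -0.64 (SE 0.136, adjusted p = 0.000857) in WT mice.

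Sdha, which oxidises succinate and lies at 74322255 to 74350240 on chromosome 13, overlapped its controls in all 4 comparisons, with log2 fold changes of -0.11 and -0.08 in diabetes and unloading of Notch2-mKO mice and 0.08 and 0.20 in WT mice (adjusted p of 0.647, 0.758, 0.681 and 0.242). The ratio of Sdhb to Sdha within a library, which does not depend on scaling, was 0.454 ± 0.0158 in diabetes and 0.394 ± 0.0266 after unloading, against 0.591 ± 0.0361 in controls of Notch2-mKO mice. In WT mice it was 0.406 ± 0.0413 in diabetes and 0.339 ± 0.0205 after unloading, against 0.670 ± 0.116 in controls (SD, n = 4 each). Treated and control libraries did not overlap in this ratio in either genotype. The ratio can still move with the base composition and length trend, which was not removed from it. The Sdhb transcript has 54.9% GC and 1142 nucleotides, and that of Sdha 48.5% GC and 2900 nucleotides. The second anchor, Sdhd, was not called in any of the 4 comparisons, with log2 fold changes between -0.45 and -0.01.

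In complex III, the cytochrome and its hinge protein fell in most comparisons, and the core protein Uqcrc2, the Rieske protein Uqcrfs1 and the small subunit Uqcrb fell in none under TMM scaling. Cyc1, the haem protein cytochrome c1 that passes electrons to cytochrome c and lies at 76343513 to 76346260 on chromosome 15, measured 357, 332, 309.7 and 310.1 CPM in diabetes and 206, 312, 345 and 284 CPM after unloading, against 401, 445, 486 and 455 CPM in controls of Notch2-mKO mice. In WT mice, Cyc1 measured 363, 279, 189 and 362 CPM in diabetes and 194, 266, 278 and 295 CPM after unloading, against 459.5, 469, 587 and 413 CPM in controls. All treated libraries were below all controls of their genotype. The log2 fold changes of Cyc1 were -0.45 (SE 0.173, adjusted p = 0.122) in diabetes and -0.64 (SE 0.174, adjusted p = 0.0273) after unloading of Notch2-mKO mice, and -0.69 (SE 0.174, adjusted p = 0.00345) and -0.90 (SE 0.174, adjusted p = 0.000331) in WT mice. Uqcrh, the hinge protein that sits between cytochromes c1 and c, measured 187, 161, 155 and 150.0 CPM in diabetes and 123, 145, 188 and 143 CPM after unloading, against 210.1, 226, 257 and 221 CPM in controls of Notch2-mKO mice. Uqcrh values in WT mice were 175, 148, 122 and 175 CPM in diabetes and 126, 162, 164 and 154 CPM after unloading, against 222, 210.4, 259.5 and 223 CPM in controls. It fell in all 4 comparisons without overlap, with log2 fold changes of -0.48 (SE 0.132, adjusted p = 0.034) and -0.61 (SE 0.132, adjusted p = 0.00878) in Notch2-mKO mice and -0.56 (SE 0.132, adjusted p = 0.00205) and -0.59 (SE 0.132, adjusted p = 0.00116) in WT mice, for diabetes and unloading in each. The call in diabetes of Notch2-mKO mice was lost once the GC and length trend was removed, at -0.37 (adjusted p = 0.0636).

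The small subunits behaved unevenly. Uqcr11 measured 151, 134, 121 and 129.7 CPM in diabetes and 109.6, 118, 168 and 127 CPM after unloading, against 203, 170.5, 214 and 179.5 CPM in controls of Notch2-mKO mice. In WT mice, Uqcr11 measured 133, 108, 96.2 and 138 CPM in diabetes and 144, 178, 143 and 160.3 CPM after unloading, against 169, 205, 228 and 188 CPM in controls. Only WT unloading overlapped its controls. Uqcr11 had log2 fold changes of -0.52 (SE 0.136, adjusted p = 0.0295) in diabetes and -0.55 (SE 0.137, adjusted p = 0.0177) after unloading of Notch2-mKO mice, and -0.73 (SE 0.137, adjusted p = 0.000269) and -0.34 (SE 0.136, adjusted p = 0.0572) in WT mice. Uqcrq, a ubiquinone-binding small subunit, measured 247, 227, 253 and 249 CPM in diabetes and 242, 306, 345 and 289 CPM after unloading, against 285, 294, 325 and 288 CPM in controls of Notch2-mKO mice. Its levels in WT mice were 219, 186, 140.0 and 222 CPM in diabetes and 211, 249, 242 and 292 CPM after unloading, against 290.5, 299.9, 333 and 296 CPM in controls. Uqcrq overlapped the controls after unloading in both genotypes and lay below them in diabetes. Its call was limited to diabetes of WT mice, -0.67 (SE 0.128, adjusted p = 0.000346), with -0.29 (SE 0.128, adjusted p = 0.183) in diabetes of Notch2-mKO mice and -0.01 (SE 0.128, adjusted p = 0.968) and -0.29 (SE 0.128, adjusted p = 0.0756) after unloading of Notch2-mKO and WT mice.

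Uqcrc2, a core protein, measured 371, 317, 298 and 322 CPM in diabetes and 236, 321, 339.8 and 344 CPM after unloading, against 386, 383, 395 and 366 CPM in controls of Notch2-mKO mice. In WT mice, Uqcrc2 measured 348, 308, 216 and 369 CPM in diabetes and 276, 299, 317 and 333 CPM after unloading, against 309, 307, 331 and 364 CPM in controls. Its treated libraries overlapped the controls except after unloading of Notch2-mKO mice. No comparison called it: the values were -0.23 (SE 0.135, adjusted p = 0.335) and -0.30 (SE 0.135, adjusted p = 0.161) in diabetes and unloading of Notch2-mKO mice and -0.08 (SE 0.135, adjusted p = 0.688) and -0.10 (SE 0.135, adjusted p = 0.61) in WT mice. The other core protein, Uqcrc1, fell in WT mice, with log2 fold changes of -0.61 (SE 0.172, adjusted p = 0.00872) in diabetes and -0.64 (SE 0.173, adjusted p = 0.00537) after unloading, and had log2 fold changes of -0.39 (SE 0.172, adjusted p = 0.181) and -0.36 (SE 0.172, adjusted p = 0.20) in Notch2-mKO mice.

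In complex IV, the muscle isoform Cox7a1 had the most negative fold changes of the isoform genes. It lies at 30184171 to 30186030 on chromosome 7 and measured 146, 112, 107 and 129 CPM in diabetes and 87.3, 121, 177 and 153 CPM after unloading, against 229.6, 219.8, 257 and 214 CPM in controls of Notch2-mKO mice. In WT mice, Cox7a1 measured 130.3, 94.2, 49.7 and 122 CPM in diabetes and 122, 122, 138 and 144 CPM after unloading, against 198, 228, 253 and 204 CPM in controls. Every treated library was below every control, and WT diabetes replicate 3 was the lowest of all. Cox7a1 fell, with log2 fold changes of -0.90 (SE 0.210, adjusted p = 0.0166) in diabetes and -0.77 (SE 0.209, adjusted p = 0.027) after unloading of Notch2-mKO mice, and -1.15 (SE 0.211, adjusted p = 0.000218) and -0.75 (SE 0.209, adjusted p = 0.00732) in WT mice. Its ubiquitous partner Cox7a2 measured 96.6, 85.7, 81.8 and 87.0 CPM in diabetes and 90.8, 107, 115 and 93.7 CPM after unloading, against 113, 117, 147 and 121 CPM in controls of Notch2-mKO mice. Cox7a2 values in WT mice were 101, 78.9, 56.01 and 90.7 CPM in diabetes and 67.4, 87.8, 95.3 and 93.0 CPM after unloading, against 121, 119, 142 and 109 CPM in controls. It overlapped its controls only after unloading of Notch2-mKO mice. The log2 fold changes of Cox7a2 were -0.50 (SE 0.144, adjusted p = 0.0412) in diabetes and -0.29 (SE 0.144, adjusted p = 0.215) after unloading of Notch2-mKO mice, and -0.59 (SE 0.145, adjusted p = 0.00292) and -0.52 (SE 0.145, adjusted p = 0.00736) in WT mice.

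The muscle isoform of subunit 8, Cox8b, fell in all 4 comparisons. It measured 224, 196, 186 and 178 CPM in diabetes and 229, 213, 270.5 and 208 CPM after unloading, against 285, 313, 349 and 301 CPM in controls of Notch2-mKO mice. In WT mice, Cox8b measured 199.7, 159, 159.6 and 198 CPM in diabetes and 204, 243, 241 and 206 CPM after unloading, against 287, 292, 334 and 260.4 CPM in controls. No treated library overlapped its controls. The fold changes of Cox8b were -0.67 (SE 0.116, adjusted p = 0.00363) and -0.44 (SE 0.115, adjusted p = 0.0243) in diabetes and unloading of Notch2-mKO mice, and -0.71 (SE 0.116, adjusted p = 7.49e-05) and -0.39 (SE 0.115, adjusted p = 0.0105) in WT mice. Once the GC and length trend was removed, the unloading values were -0.26 (adjusted p = 0.0694) in Notch2-mKO and 0.0026 (adjusted p = 0.986) in WT mice, and neither was called. Its ubiquitous partner Cox8a measured 23.6, 23.04, 25.1 and 25.7 CPM in diabetes and 28.4, 26.1, 27.8 and 34.2 CPM after unloading, against 25.8, 30.2, 29.6 and 31.7 CPM in controls of Notch2-mKO mice. Cox8a values in WT mice were 23.5, 19.2, 20.5 and 22.6 CPM in diabetes and 24.2, 21.8, 21.1 and 26.3 CPM after unloading, against 39.2, 30.4, 36.8 and 26.9 CPM in controls. Only unloading of Notch2-mKO mice overlapped. Cox8a had log2 fold changes of -0.27 (SE 0.117, adjusted p = 0.178) and -0.01 (SE 0.117, adjusted p = 0.979) in diabetes and unloading of Notch2-mKO mice. It fell in WT mice, at -0.64 (SE 0.118, adjusted p = 0.000244) in diabetes and -0.51 (SE 0.118, adjusted p = 0.00152) after unloading.

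For subunit 6a, the muscle isoform Cox6a2 measured 932, 877, 1014 and 986 CPM in diabetes and 758, 1284, 1100.5 and 1085 CPM after unloading, against 1054, 1293, 1159.9 and 1055 CPM in controls of Notch2-mKO mice. In WT mice, Cox6a2 measured 831, 722, 737 and 756 CPM in diabetes and 690.4, 1059, 859 and 1069 CPM after unloading, against 1238, 1063, 1267 and 1170.0 CPM in controls. Diabetes lay below the controls and unloading overlapped them, in both genotypes. Cox6a2 had log2 fold changes of -0.26 (SE 0.139, adjusted p = 0.275) and -0.11 (SE 0.139, adjusted p = 0.669) in diabetes and unloading of Notch2-mKO mice. It fell in WT mice, at -0.64 (SE 0.139, adjusted p = 0.00109) and -0.37 (SE 0.139, adjusted p = 0.043). The ubiquitous isoform Cox6a1 measured 20.7, 19.7, 18.2 and 18.3 CPM in diabetes and 16.6, 17.6, 21.8 and 19.4 CPM after unloading, against 19.9, 23.7, 22.7 and 24.3 CPM in controls of Notch2-mKO mice. Cox6a1 values in WT mice were 18.3, 16.7, 13.3 and 19.7 CPM in diabetes and 18.3, 13.9, 17.1 and 19.97 CPM after unloading, against 27.1, 21.9, 26.3 and 20.1 CPM in controls. Cox6a1 overlapped the controls in Notch2-mKO mice and not in WT mice. The test gave -0.24 (SE 0.132, adjusted p = 0.297) and -0.27 (SE 0.132, adjusted p = 0.211) in Notch2-mKO mice, and -0.49 (SE 0.132, adjusted p = 0.00615) and -0.46 (SE 0.132, adjusted p = 0.00854) in WT mice.

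Cox4i1, the widely expressed isoform of subunit 4, measured 662, 629.6, 712 and 687 CPM in diabetes and 519, 784, 853 and 865 CPM after unloading, against 779, 914, 1021 and 862 CPM in controls of Notch2-mKO mice. In WT mice, Cox4i1 measured 622, 520.3, 449 and 622 CPM in diabetes and 539, 643, 673 and 734 CPM after unloading, against 943, 924, 1193 and 862 CPM in controls. It lay below its controls except after unloading of Notch2-mKO mice. Cox4i1 fell, with log2 fold changes of -0.82 (SE 0.147, adjusted p = 0.000175) in diabetes and -0.60 (SE 0.147, adjusted p = 0.0026) after unloading of WT mice, and had log2 fold changes of -0.41 (SE 0.146, adjusted p = 0.0954) and -0.24 (SE 0.146, adjusted p = 0.313) in Notch2-mKO mice. Cox4i2, the isoform known from lung and from low oxygen, was present at a few CPM. It measured 1.61, 1.33, 2.16 and 0.911 CPM in diabetes and 1.24, 1.93, 0.948 and 2.45 CPM after unloading, against 2.12, 1.68, 1.94 and 2.38 CPM in controls of Notch2-mKO mice. Cox4i2 values in WT mice were 1.18, 1.75, 1.38 and 1.07 CPM in diabetes and 0.955, 0.966, 0.879 and 2.20 CPM after unloading, against 2.31, 1.76, 1.87 and 1.30 CPM in controls. The groups overlapped everywhere, and no change passed the test, with values of -0.43 (SE 0.312, adjusted p = 0.442) and -0.30 (SE 0.311, adjusted p = 0.586) in Notch2-mKO mice and -0.43 (SE 0.316, adjusted p = 0.318) and -0.55 (SE 0.319, adjusted p = 0.191) in WT mice.

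Among subunits without an isoform pair, Cox5b, a matrix-side zinc-binding subunit at 36691487 to 36693388 on chromosome 1, measured 327, 299, 305 and 321 CPM in diabetes and 271, 381, 451 and 378 CPM after unloading, against 489.8, 481, 568 and 493 CPM in controls of Notch2-mKO mice. In WT mice, Cox5b measured 310.0, 217, 165 and 289.6 CPM in diabetes and 313, 386, 357 and 382 CPM after unloading, against 439, 515, 612 and 511 CPM in controls. No treated library reached the controls. Cox5b fell in diabetes of Notch2-mKO mice, with a log2 fold change of -0.70 (SE 0.158, adjusted p = 0.0143), and had -0.46 (SE 0.158, adjusted p = 0.0714) after their unloading. It fell in WT mice, at -1.08 (SE 0.159, adjusted p = 2.67e-05) in diabetes and -0.53 (SE 0.158, adjusted p = 0.0111) after unloading. Cox7c, a small membrane subunit at 86044798 to 86046795 on chromosome 13, measured 277, 231, 234 and 249.9 CPM in diabetes and 265, 265, 343 and 263 CPM after unloading, against 355, 317, 366 and 351 CPM in controls of Notch2-mKO mice. Cox7c values in WT mice were 245, 197, 172 and 251 CPM in diabetes and 300.0, 319, 318 and 323 CPM after unloading, against 295, 343, 324 and 326 CPM in controls. It lay below the controls in diabetes and overlapped them after unloading. Cox7c fell, with log2 fold changes of -0.49 (SE 0.114, adjusted p = 0.0166) and -0.58 (SE 0.114, adjusted p = 0.000452) in diabetes of Notch2-mKO and WT mice, and had -0.29 (SE 0.114, adjusted p = 0.111) and -0.03 (SE 0.114, adjusted p = 0.846) after unloading.

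Cox6c, a small membrane subunit at 35931976 to 35938246 on chromosome 15, went the other way. It measured 241, 222, 219 and 246 CPM in diabetes and 214, 254, 261 and 236 CPM after unloading, against 274, 175, 213 and 211 CPM in controls of Notch2-mKO mice. In WT mice, Cox6c measured 215, 212, 190.5 and 255 CPM in diabetes and 263, 301, 277 and 295 CPM after unloading, against 156, 213, 152 and 235 CPM in controls. All 4 unloaded WT libraries were above all 4 WT controls, and the other comparisons overlapped. Cox6c rose, with a log2 fold change of 0.59 (SE 0.138, adjusted p = 0.00178) after unloading of WT mice, and had log2 fold changes of 0.15 (SE 0.137, adjusted p = 0.548) after unloading of Notch2-mKO mice and 0.09 (SE 0.137, adjusted p = 0.753) and 0.21 (SE 0.137, adjusted p = 0.257) in diabetes of Notch2-mKO and WT mice. The matrix-side subunit Cox5a fell in diabetes of Notch2-mKO mice (-0.50) and in diabetes and unloading of WT mice (-0.74 and -0.53), and Cox6b1, on the intermembrane side, fell in all 4 comparisons, with values from -0.62 to -0.45. Cox7b fell in diabetes of WT mice alone (-0.31), and Cox7a2l passed the test in none, with values from -0.21 to 0.12.

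In complex V, Atp5k had the largest fall of the 45 genes in diabetes of both genotypes and in unloading of Notch2-mKO mice. It is the membrane subunit e, which helps ATP synthase to form the dimers that shape the cristae. Atp5k lies at 108433246 to 108434399 on chromosome 5 and measured 63.4, 49.9, 46.2 and 48.5 CPM in diabetes and 39.5, 39.3, 65.1 and 49.1 CPM after unloading, against 131, 108, 144 and 111 CPM in controls of Notch2-mKO mice. In WT mice, Atp5k measured 57.0, 34.4, 31.7 and 54.3 CPM in diabetes and 69.9, 74.0, 63.9 and 57.0 CPM after unloading, against 94.6, 124, 154 and 111 CPM in controls. The highest treated library was below the lowest control in each genotype. Atp5k fell, with log2 fold changes of -1.25 (SE 0.189, adjusted p = 0.00113) in diabetes and -1.36 (SE 0.190, adjusted p = 0.000376) after unloading of Notch2-mKO mice, and -1.45 (SE 0.190, adjusted p = 1.09e-05) and -0.87 (SE 0.188, adjusted p = 0.000931) in WT mice. Its ratio to the catalytic subunit Atp5b, which was not called in any comparison, was 0.0202 ± 0.00226 in diabetes and 0.0175 ± 0.00417 after unloading, against 0.0423 ± 0.00513 in controls of Notch2-mKO mice. In WT mice the ratio was 0.0178 ± 0.00374 in diabetes and 0.0249 ± 0.00447 after unloading, against 0.0426 ± 0.00791 in controls. RefSeq names 4 pseudogenes of Atp5k, so reads could be split between near-identical copies.

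The c-ring, which turns as protons pass, is encoded by 3 genes whose mature protein is the same. Atp5g1, at 96072793 to 96075694 on chromosome 11, measured 446, 424, 400.0 and 389 CPM in diabetes and 409, 389, 490.1 and 427 CPM after unloading, against 579, 649, 718 and 611 CPM in controls of Notch2-mKO mice. In WT mice, Atp5g1 measured 425, 329, 297 and 401 CPM in diabetes and 319, 383, 384 and 351 CPM after unloading, against 639, 631, 879 and 527 CPM in controls. There was no overlap with controls. Atp5g1 fell, with log2 fold changes of -0.62 (SE 0.135, adjusted p = 0.0116) in diabetes and -0.58 (SE 0.135, adjusted p = 0.013) after unloading of Notch2-mKO mice, and -0.88 (SE 0.135, adjusted p = 4.10e-05) and -0.90 (SE 0.135, adjusted p = 2.43e-05) in WT mice. Atp5g3 measured 367, 317, 270.2 and 298 CPM in diabetes and 231, 285, 369.6 and 323 CPM after unloading, against 463, 469, 545 and 527 CPM in controls of Notch2-mKO mice. Atp5g3 values in WT mice were 338, 276, 206 and 389.7 CPM in diabetes and 265, 308, 339.7 and 316 CPM after unloading, against 471, 512, 653 and 456 CPM in controls. It too fell without overlap, with log2 fold changes of -0.68 (SE 0.164, adjusted p = 0.0198) and -0.73 (SE 0.164, adjusted p = 0.0109) in diabetes and unloading of Notch2-mKO mice and -0.79 (SE 0.164, adjusted p = 0.00071) and -0.77 (SE 0.164, adjusted p = 0.000802) in WT mice.

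Atp5g2, the third c-ring gene, moved less than the other two. It measured 302, 309.7, 313 and 309 CPM in diabetes and 305, 311, 398 and 349 CPM after unloading, against 367, 372, 402 and 368 CPM in controls of Notch2-mKO mice. In WT mice, Atp5g2 measured 294, 291, 321 and 289 CPM in diabetes and 303, 346, 348 and 329 CPM after unloading, against 389, 394, 462 and 374 CPM in controls. Only unloading of Notch2-mKO mice overlapped its controls. Atp5g2 had log2 fold changes of -0.29 (SE 0.094, adjusted p = 0.0655) and -0.15 (SE 0.094, adjusted p = 0.347) in diabetes and unloading of Notch2-mKO mice. It fell in WT mice, at -0.44 (SE 0.095, adjusted p = 0.000965) in diabetes and -0.29 (SE 0.094, adjusted p = 0.0202) after unloading, and the unloading value turned to 0.08 (adjusted p = 0.571) once the GC and length trend was removed. The ratio of Atp5g1 to Atp5g2 was 1.35 ± 0.0993 in diabetes and 1.26 ± 0.0544 after unloading, against 1.69 ± 0.0922 in controls of Notch2-mKO mice, and 1.22 ± 0.241, 1.08 ± 0.0272 and 1.64 ± 0.204 in the same order in WT mice. It overlapped the controls in diabetes of WT mice only.

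In the F1 head, which makes the ATP, Atp5d, the delta subunit of the central stalk, measured 399.7, 417, 414 and 379.7 CPM in diabetes and 326, 378, 451 and 419.9 CPM after unloading, against 453, 527, 561 and 488 CPM in controls of Notch2-mKO mice. In WT mice, Atp5d measured 407, 334, 292 and 371 CPM in diabetes and 300.1, 344, 352 and 387 CPM after unloading, against 556, 519, 723 and 506 CPM in controls. Treated and control libraries did not overlap. Atp5d fell, with log2 fold changes of -0.71 (SE 0.127, adjusted p = 0.000171) in diabetes and -0.74 (SE 0.127, adjusted p = 0.000101) after unloading of WT mice, and had log2 fold changes of -0.33 (SE 0.127, adjusted p = 0.114) and -0.37 (SE 0.127, adjusted p = 0.0713) in Notch2-mKO mice. The catalytic hexamer genes Atp5a1 and Atp5b passed the test in no comparison, with values from -0.30 to -0.27 for Atp5a1 and from -0.20 to -0.04 for Atp5b. Of the 5 head genes, 0 fell in diabetes and 1 after unloading of Notch2-mKO mice, and 3 and 3 in WT mice. Of the 3 c-ring genes, 2 and 2 fell in Notch2-mKO mice and 3 and 3 in WT mice. Of the 4 genes of the peripheral stalk, which holds the head still, 0 and 0 fell in Notch2-mKO mice and 3 and 2 in WT mice, with Atp5f1 uncalled in both. Of the 3 membrane accessory genes Atp5j2, Atp5k and Atp5l, 1 and 1 fell in Notch2-mKO mice, both times Atp5k, and 3 and 2 in WT mice. Of all genes tested, 2.54% and 3.2% were called lower in Notch2-mKO mice and 15.5% and 16.3% in WT mice. With the GC and length trend removed, Atp5e and Atp5g2 lost their calls in both WT comparisons, and Atp5c1, Atp5j and Atp5l in WT diabetes. Atp5e also lost its call after unloading of Notch2-mKO mice.

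Atp5s, at 69724913 to 69744665 on chromosome 12, rose after unloading of WT mice. It measured 6.94, 7.23, 6.56 and 7.68 CPM in diabetes and 8.08, 7.57, 8.56 and 6.13 CPM after unloading, against 5.91, 5.45, 6.54 and 6.41 CPM in controls of Notch2-mKO mice. In WT mice, Atp5s measured 7.81, 8.03, 3.28 and 5.74 CPM in diabetes and 10.2, 7.77, 8.12 and 6.65 CPM after unloading, against 5.13, 5.74, 4.39 and 5.72 CPM in controls. The unloaded WT libraries lay above the WT controls. Atp5s rose, with a log2 fold change of 0.64 (SE 0.194, adjusted p = 0.0123) after unloading of WT mice, and had log2 fold changes of 0.32 (SE 0.192, adjusted p = 0.314) after unloading of Notch2-mKO mice and 0.23 (SE 0.192, adjusted p = 0.524) and 0.24 (SE 0.194, adjusted p = 0.361) in diabetes of Notch2-mKO and WT mice. With the base composition and length trend removed its value after unloading of WT mice turned to -0.19 (adjusted p = 0.516).

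**Figure D3:**
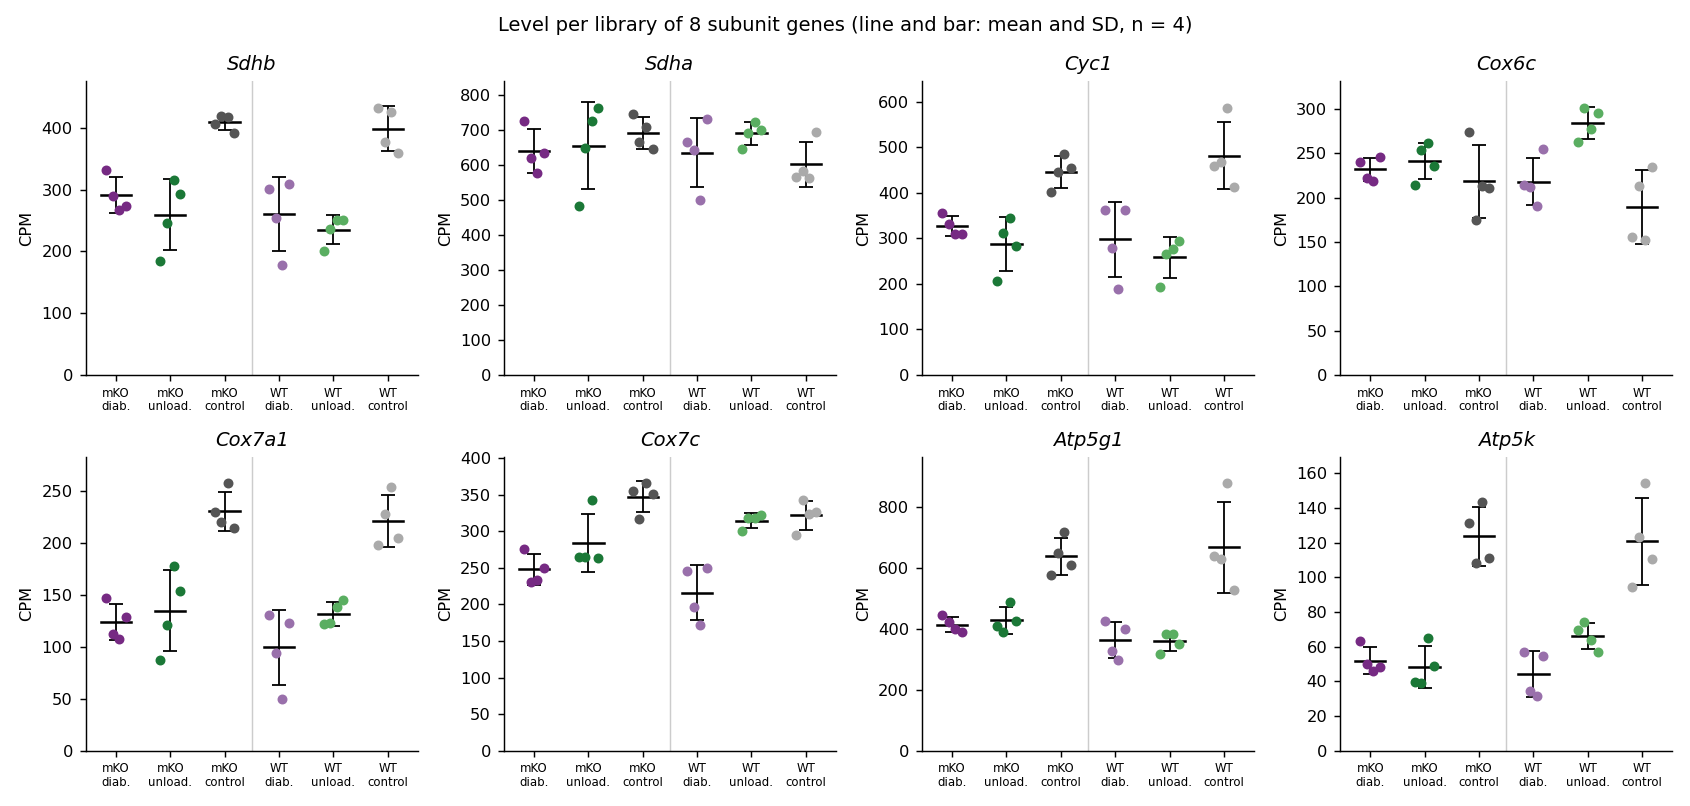
Level of 8 of the genes in CPM, with 1 point per library and the mean and SD of each group of 4, with diabetes, unloading and control in turn for Notch2-mKO and WT mice. Sdhb, Cyc1, Cox7a1, Atp5g1 and Atp5k lie below their controls in every treated library, Cox7c in the diabetes libraries, Sdha overlaps its controls throughout, and Cox6c is above its controls after unloading of WT mice.

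Among the isoform pairs of complex IV, the ratio stood apart from controls for Cox7a1 and Cox7a2. The ratio of Cox7a1 to Cox7a2 was 1.404 ± 0.109 in diabetes and 1.32 ± 0.321 after unloading, against 1.86 ± 0.128 in controls of Notch2-mKO mice. In WT mice it was 1.18 ± 0.206 in diabetes and 1.55 ± 0.182 after unloading, against 1.80 ± 0.123 in controls. The ratio overlapped that of controls after unloading of WT mice only, and the muscle isoform remained the more counted one in every group mean. The ratios of Cox8b to Cox8a, Cox6a2 to Cox6a1 and Cox4i1 to Cox4i2 overlapped the controls in all 4 comparisons. Group means of Cox8b over Cox8a were 8.07, 8.004 and 10.7 in diabetes, unloading and controls of Notch2-mKO mice and 8.34, 9.71 and 8.92 in WT mice, and those of Cox6a2 over Cox6a1 were 49.8, 56.3 and 50.5 in Notch2-mKO mice and 45.6, 54.5 and 50.2 in WT mice. Complex IV over complex V, as a ratio of summed counts, was 0.405 ± 0.0147 in diabetes and 0.431 ± 0.0201 after unloading, against 0.432 ± 0.0077 in controls of Notch2-mKO mice. The diabetes libraries overlapped the controls by a narrow margin, 0.392 to 0.420 against 0.420 to 0.437. In WT mice it was 0.372 ± 0.0129 in diabetes, 0.434 ± 0.0166 after unloading and 0.438 ± 0.0036 in controls. Every diabetes library (0.356 to 0.382) was below every unloaded (0.410 to 0.447) and control library (0.434 to 0.442).

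**Figure D4:**
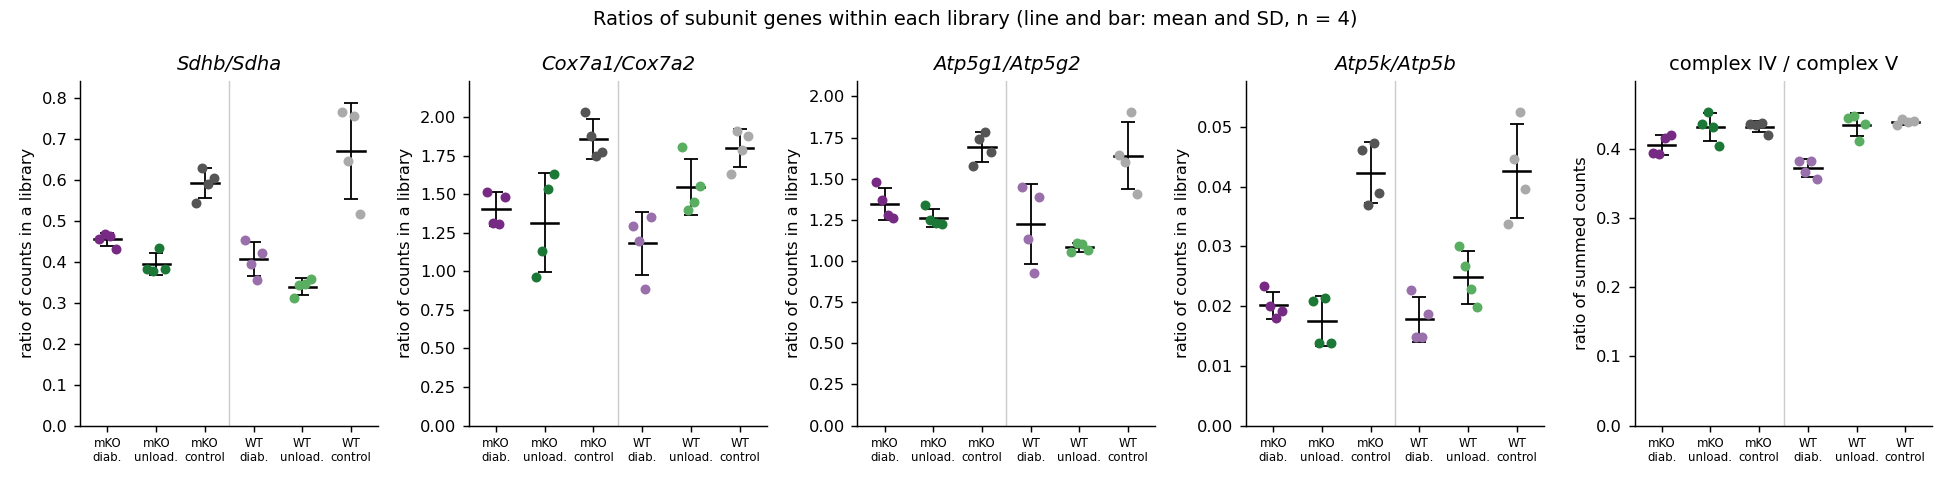
Ratio of CPM between genes, and of summed counts between complexes IV and V, with 1 point per library and the mean and SD of each group of 4. The GC and length trend was not removed from these ratios. Sdhb over Sdha and Atp5k over Atp5b are below control in every treated library of both genotypes, and complex IV over V is lower in WT diabetes, at 0.372, than after WT unloading or in WT controls.

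Diabetes and unloading were also compared directly. In WT mice, 1 of the 45 genes was lower in diabetes than after unloading and none higher, where 3.56% of all genes tested were called, 1.24% lower and 2.31% higher. That gene was Cox7c, with 216 ± 38.0 CPM in diabetes and 315 ± 10.1 CPM after unloading (SD, n = 4 each), a log2 fold change of -0.54 (SE 0.114, adjusted p = 0.00768) and no overlap. Next came Cox5b at -0.55 (SE 0.158, adjusted p = 0.0501), Cox7b at -0.38 (SE 0.119, adjusted p = 0.0737) and Atp5k at -0.58 (SE 0.188, adjusted p = 0.0906), which missed the threshold. The median of the 45 was -0.12. DESeq2 called 3 of the 45, and edgeR called 3 without WT diabetes replicate 1 or replicate 4 and 2 without WT unloading replicate 1. In Notch2-mKO mice, edgeR called none of the 45, where 3.07% of all genes were called and 1.12% were called lower. At an unadjusted p under 0.05 there were 2 of 45, against 15.5% of all genes. The smallest adjusted p was that of Cox8a, at -0.26 (SE 0.117, adjusted p = 0.277), and the median was -0.03. On the deposited log2 values, limma called 1 of the 45 in this comparison.

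No gene of the 45 passed the test between the genotypes. In edgeR, 0 of 45 were called between Notch2-mKO and WT mice in diabetes, unloading or control, where 0% of all genes tested were called, and DESeq2 called 0 as well. At an unadjusted p under 0.05 there were 3 of 45 in diabetes (5.3% of all genes), 2 after unloading (10.3%) and 0 in controls (5.33%). The smallest adjusted p values belonged to Uqcrq in diabetes, at 0.35 (SE 0.128, adjusted p = 0.872), Cox8a after unloading, at 0.32 (SE 0.117, adjusted p = 0.423), and Uqcrc2 in controls, at 0.22 (SE 0.135, adjusted p = 0.893). In diabetes, 44 of the 45 genes had a positive value for Notch2-mKO minus WT, with a median of 0.16, against 31 after unloading and 23 in controls, with medians of 0.04 and 0.00. With the base composition and length trend removed, these medians were 0.06 in diabetes, -0.01 after unloading and 0.03 in controls. Under TMM scaling the diabetes median ran from 0.08 to 0.24 when 1 library was left out. WT diabetes replicate 3 was the lowest of its group in 39 of the 45 genes. The 45 values share their libraries, so their common sign is not 45 separate observations.

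The response itself was compared between genotypes by an interaction term. For diabetes, 0 of 45 genes were called in edgeR and in DESeq2, with 3 at an unadjusted p under 0.05 (8.75% of all genes), and the median difference, Notch2-mKO minus WT, was 0.15, or 0.03 with the trend removed. For unloading, 0 were called, with 3 at an unadjusted p under 0.05 (14.4% of all genes) and a median of 0.04, or -0.03 with the trend removed; without WT control replicate 4, 1 gene was called. Cox8a had the smallest adjusted p, with differences of 0.37 (SE 0.166, adjusted p = 0.554) for diabetes and 0.51 (SE 0.166, adjusted p = 0.184) for unloading. The larger number of calls in WT than in Notch2-mKO mice was therefore not matched by a call on the difference for any of the 45 genes.

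The fold changes of the 45 genes, like those of all genes tested, moved with base composition. Transcript GC ranged from 39.0% to 61.1%, with a median of 51.0% (50.8% for all genes tested), and the median transcript was 745 nucleotides long, against 2795.5 for all genes tested. Across the 45 genes, Pearson's r between GC and log2 fold change was -0.37 in diabetes and -0.353 after unloading of Notch2-mKO mice, and -0.485 and -0.633 in WT mice. Over all 12986 genes tested with GC values, r was -0.274, -0.21, -0.457 and -0.483 in the same order. The 45 points share their libraries and are not independent. Of the 17 genes under 50% GC, 4 and 2 fell in diabetes and unloading of Notch2-mKO mice and 8 and 5 in WT mice, and of the 28 at or above 50%, 8 and 10 fell in Notch2-mKO mice and 25 and 22 in WT mice. With the trend removed, the lower calls were 3, 3, 8 and 8 of the 17 and 5, 8, 12 and 10 of the 28. The shares of all genes called lower on each side of 50% GC are not given here. These counts therefore do not show a split particular to the 45 genes. The part of the base composition shift in these falls was not tested beyond removing the trend.

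When a smooth trend on GC and length was removed from every library, lower calls numbered 8 in diabetes and 11 after unloading of Notch2-mKO mice, and 20 and 18 in WT mice, with 1 higher call after WT unloading. Of all genes, 4.33%, 7.59%, 23.7% and 25.9% were then called in these 4 comparisons. The medians of the 45 remained negative, at -0.26 and -0.29 in Notch2-mKO mice and -0.32 and -0.24 in WT mice. Called in the same direction with and without the trend were 7 of 12 and 9 of 12 genes in diabetes and unloading of Notch2-mKO mice, and 18 of 33 and 16 of 29 in WT mice. Atp5k, Atp5g1 and Atp5g3 were among them in all 4. Atp5k had log2 fold changes of -1.06 (adjusted p = 0.00134) and -1.21 (adjusted p = 0.000317) in diabetes and unloading of Notch2-mKO mice and -1.10 (adjusted p = 7.98e-05) and -0.52 (adjusted p = 0.0225) in WT mice with the trend removed. In Notch2-mKO mice, calls were lost for Cox5a, Cox6b1, Cox7a2, Uqcr11 and Uqcrh in diabetes and for Atp5e, Cox8b and Sdhc after unloading. Calls lost in both WT comparisons were those of Atp5e, Atp5g2, Atp5sl, Cox6a1, Cox6a2, Cox7a2, Cox8a, Uqcr10 and Uqcrc1, and after WT unloading Cox7a1, Cox8b and Cox4i1 were lost too. Sdhb kept its call after unloading, at -0.60 (adjusted p = 0.00996) in Notch2-mKO and -0.47 (adjusted p = 0.0108) in WT mice, and lost it in WT diabetes, at -0.30 (adjusted p = 0.101). Cyc1 likewise kept it after unloading and had -0.40 (adjusted p = 0.0622) in WT diabetes, while Cox6c remained higher after WT unloading, at 0.67 (adjusted p = 0.00102). Uqcrc2 was called lower once the trend was removed, at -0.44 (adjusted p = 0.0483) after unloading of Notch2-mKO mice and -0.38 (adjusted p = 0.0485) and -0.42 (adjusted p = 0.0258) in diabetes and unloading of WT mice. Uqcrb was then called lower in both WT comparisons, at -0.69 (adjusted p = 0.00073) in diabetes and -0.49 (adjusted p = 0.00813) after unloading. Sdhd was called lower after unloading of Notch2-mKO mice, at -0.46 (adjusted p = 0.0329), and Cox7b in diabetes of Notch2-mKO mice, at -0.45 (adjusted p = 0.0178), and after unloading of WT mice, at -0.43 (adjusted p = 0.00442).

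**Figure D5:**
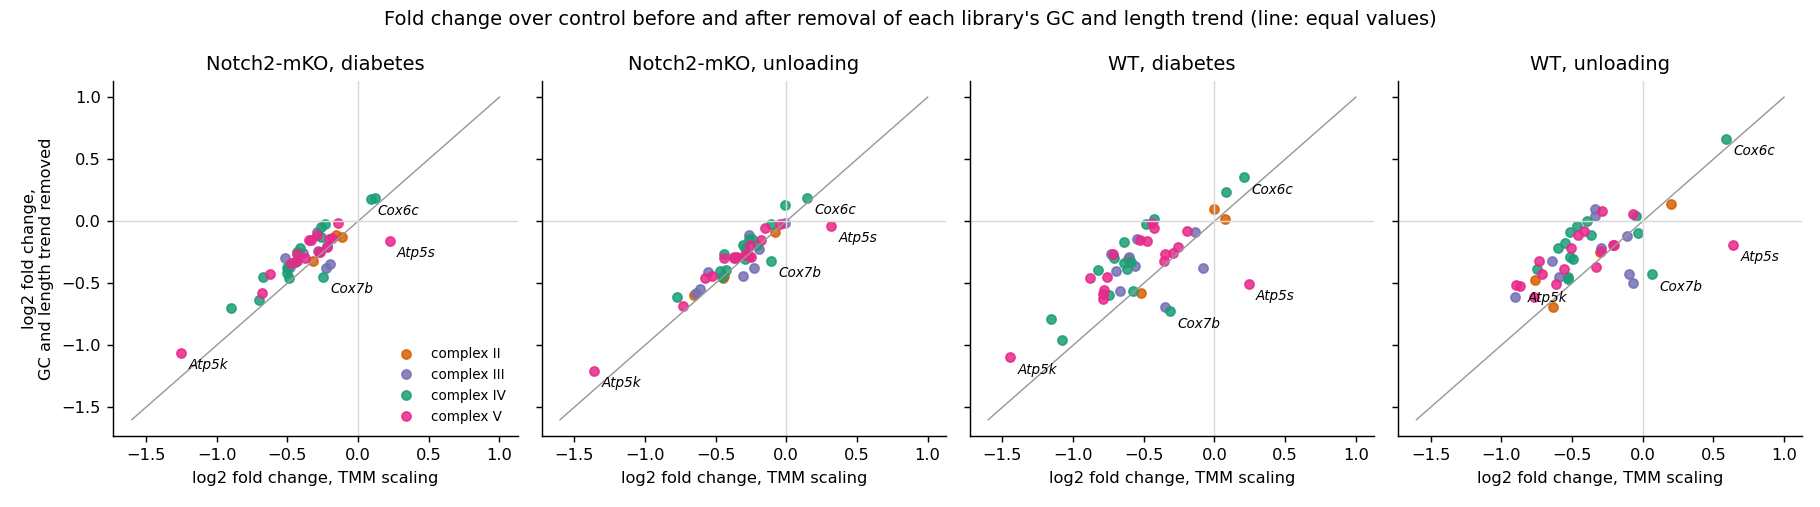
Log2 fold change of the 45 genes before (x axis) and after (y axis) removal of the GC and length trend, with 1 panel per comparison and Notch2-mKO before WT. Most points remain below 0 on both axes, 39 of 45 points in WT diabetes and 36 of 45 in WT unloading lie above the diagonal, and the WT medians are -0.32 in diabetes and -0.24 after unloading with the trend removed, against -0.56 and -0.46 before.

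The genes that feed, assemble or precede these complexes were less uniform, except for complex I. Of 38 nuclear complex I subunit genes, 12 fell in diabetes and 7 after unloading of Notch2-mKO mice, and 29 and 22 in WT mice, and none rose. Of all genes tested, 2.54% and 3.2% were called lower in these comparisons of Notch2-mKO mice and 15.5% and 16.3% in those of WT mice. With the GC and length trend removed, 5 and 8 of the 38 were called in Notch2-mKO mice and 17 and 12 in WT mice. Their medians under TMM scaling were -0.38, -0.35, -0.49 and -0.38. Among 16 genes tested for electron carriers and ubiquinone synthesis, 1 rose and 0 fell in diabetes and 0 rose and 2 fell after unloading of Notch2-mKO mice, while 3 rose and 5 fell in diabetes and 1 rose and 7 fell after unloading of WT mice. With the trend removed, the calls numbered 1 and 3 in Notch2-mKO mice and 6 and 4 in WT mice. Etfdh, which passes electrons from fatty acid oxidation to ubiquinone, rose in diabetes, with log2 fold changes of 0.43 (SE 0.112, adjusted p = 0.0257) in Notch2-mKO and 0.50 (SE 0.112, adjusted p = 0.00133) in WT mice. Coq10a, a ubiquinone-binding protein, fell, with log2 fold changes of -0.43 after unloading of Notch2-mKO mice and -0.77 and -0.49 in diabetes and unloading of WT mice. Cytochrome c itself, Cycs, was not called in any of the 4.

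Of 15 complex IV assembly genes tested, 0 fell in diabetes and 3 after unloading of Notch2-mKO mice, and 5 and 4 fell and 2 and 1 rose in WT mice. With the trend removed, 0 and 2 were called in Notch2-mKO mice and 3 and 5 in WT mice. Of all genes tested, 33.4% and 34.7% were called in the WT comparisons, so that shares of this size in lists of a few genes are near the background. The copper chaperone Cox17 fell after unloading of Notch2-mKO mice (-0.53), and Lrpprc, which stabilises mitochondrial mRNAs, rose in WT mice, with log2 fold changes of 0.32 in diabetes and 0.33 after unloading. Of 5 assembly genes of complex III, 0 and 1 fell in Notch2-mKO mice and 2 and 2 in WT mice, and of 4 of complex II, 0 and 0 fell in Notch2-mKO mice and 1 and 1 in WT mice. Once the trend was removed, the complex III calls numbered 0 and 1 in Notch2-mKO mice and 2 and 1 in WT mice. Those of complex II then numbered 0 and 0 in Notch2-mKO mice and 2 and 2 in WT mice. Of 5 genes for assembly and inhibition of ATP synthase, none was called in Notch2-mKO mice. In WT mice the assembly factor Atpaf2 fell in diabetes (-0.36) and after unloading (-0.42), the inhibitor Atpif1 fell in diabetes (-0.68), and Tmem70, needed for assembly of the c-ring, rose in diabetes (0.40). Once the trend was removed, 1 of these 5 genes was called in WT diabetes and 0 after WT unloading.

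Markers of fibres and of other cells moved in the same libraries; they are given as CPM over all counts, without TMM scaling. The 7 fibre markers, among them Acta1 and Ckm, which define the tissue, summed to 128905 to 140280.2 CPM in diabetes, 108305 to 127346 CPM after unloading and 138185 to 144837 CPM in controls of Notch2-mKO mice, and to 121260.1 to 132752, 107854 to 127988 and 144301 to 150152 CPM in diabetes, unloading and controls of WT mice. Myh2, the myosin of fast oxidative 2A fibres, averaged 1020.2 ± 403 CPM after unloading and 2664 ± 277 CPM in controls of Notch2-mKO mice, and 845 ± 290.1 CPM after unloading and 2371 ± 415 CPM in controls of WT mice (SD, n = 4 each), with log2 fold changes of -1.51 and -1.64. Myh1, the myosin of fast 2X fibres, averaged 2772 ± 395 CPM in diabetes and 4294 ± 414 CPM in controls of Notch2-mKO mice, and 2441 ± 435 CPM in diabetes and 4050.3 ± 602 CPM in controls of WT mice, with log2 fold changes of -0.70 and -0.90. Fast oxidative myosin was thus lower after unloading, and the 2X myosin in diabetes, in both genotypes. Neither was called in the other condition. Myh1 averaged 5299 ± 732 CPM after unloading of Notch2-mKO mice and 4659 ± 1496 CPM after unloading of WT mice. Myh2 averaged 2273 ± 290 CPM in diabetes of Notch2-mKO mice and 2190 ± 272 CPM in diabetes of WT mice. Myh4, the most counted of the 3 fast myosins, was not called in any of the 4 comparisons with control. Of the 7 fibre markers, 1 and 1 fell in diabetes and unloading of Notch2-mKO mice, and 4 and 2 fell and 1 and 1 rose in WT mice. With the GC and length trend removed, 0 and 1 of the 7 were called in Notch2-mKO mice and 1 and 4 in WT mice. Of 4 slow fibre markers, 1 fell, after unloading of WT mice. None of the 4 was called against control once the trend was removed. Summed slow fibre markers overlapped between treated and control libraries. Of 6 fibroblast and tendon markers, 4 fell in diabetes and 3 after unloading of Notch2-mKO mice, and 4 and 4 in WT mice, where another of the 6, Dcn, rose in both comparisons. Their sum was 319 to 424 CPM in diabetes, 336 to 464 CPM after unloading and 449.5 to 786 CPM in controls of Notch2-mKO mice, and 337 to 419, 319.8 to 507 and 554 to 736 CPM in the same order in WT mice. Once the trend was removed, 4 and 3 of these 6 markers were called in Notch2-mKO mice and 4 and 4 in WT mice. Of 6 endothelial markers, 0 and 2 fell in diabetes and unloading of Notch2-mKO mice, and 2 and 2 in WT mice. Of all genes tested, 2.54% and 3.2% were called lower in these comparisons of Notch2-mKO mice and 15.5% and 16.3% in those of WT mice. Once the GC and length trend was removed, 0 and 2 of the 6 were called in Notch2-mKO mice and 1 and 3 in WT mice. Of 7 macrophage and leukocyte markers, none was called in Notch2-mKO mice, while 2 rose and 1 fell in diabetes and 3 fell after unloading of WT mice. Once the trend was removed, 1 of the 7 was called in WT diabetes and 3 after WT unloading. Of 3 smooth muscle and pericyte markers, Cspg4 fell in diabetes of both genotypes and after unloading of WT mice, and Rgs5 rose in both WT comparisons. The sum over 4 such markers was 58.5 to 63.9 CPM in diabetes, 33.4 to 52.4 CPM after unloading and 29.7 to 61.02 CPM in controls of Notch2-mKO mice, and 56.5 to 91.8, 52.8 to 71.1 and 30.6 to 50.4 CPM in the same order in WT mice, where treated and control libraries did not overlap. Of 2 satellite cell markers, Myf5, which had 0 counts in some libraries, was called higher in both WT comparisons. Of 3 Schwann cell markers, 1 was called higher in each WT comparison and none in Notch2-mKO mice. Summed blood and adipocyte markers overlapped, and the brown fat marker Ucp1 had 0 counts in every library. The part of these changes in the falls of the 45 genes was not tested.

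Counting limits some of these genes. Of the 45, 16 overlap another RefSeq gene, among them Uqcrc2 with Pdzd9, Uqcrq with Gdf9, Cox6a2 with Itgad and Atp5d with Cbarp, and the sources used here do not state whether strand was used. All 45 had fractional estimated counts in at least 1 library, farther than 0.001 from a whole number, which arise when reads are divided between copies or transcripts, and RefSeq names pseudogenes for Uqcrh, Cox5b, Cox7c, Atp5c1, Atp5k and Atp5l.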

How the data were processed

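RNA from gastrocnemius muscle in 24 samples, 4 for each of 6 groups, was extracted with ISOGEN and RNeasy columns and sequenced, per the labels' protocols. The authors deposited 4 tables with estimated counts per gene and, beside them, log2 expression values, per the file headers; the submitters' processing notes name the mm10 build, and the aligner and counter were not given in the sources used here. Control columns that stand in more than 1 table were identical and were used once.

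These expected counts, rounded to integers, were analysed with edgeR 4.0.16 in R 4.3.3: genes with enough counts (filterByExpr, 13048 of 36172, all 45 described genes among them), TMM scaling, a quasi-likelihood fit of all 6 groups and Benjamini-Hochberg adjustment over all genes, with a threshold of 0.05. The biological coefficient of variation was 19.97%. CPM values use TMM scaling, except for base composition and cell markers, which use all counts of a library. Log2 CPM in the replicate correlations and the trend have a prior count of 2. Log2 fold changes come from the quasi-likelihood fit. Alternatives were DESeq2 1.42.0, upper-quartile scaling, no filter on low counts, a replicate block, each library left out, removal of a spline trend (5 degrees of freedom) on transcript GC and length in each library, for which 12986 of the 13048 genes had values, and limma 3.58.1 on the authors' deposited log2 values, the last of these chosen after seeing the data. Intervals and floors cover counting error only.

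The test was checked on simulated data made from the WT unloading design: of 100 genes changed by a log2 value of 0.5, 18% were recovered, and of 100 changed by 1, 72%, with 6 false calls. The changed genes were drawn at random from all 13048 tested. In the data 34.7% of genes were called in this comparison, so the adjusted p was harder to pass in the simulation.

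The 45 genes were chosen with earlier results of these data known, and so were the gene lists set beside them. Values of every library are given for 24 genes: the isoform pairs and c-ring genes, the 2 genes of each complex with the smallest p in each WT treatment comparison, any gene called against the direction of its complex, and, in the comparisons between treatments, genotypes and responses, the genes called or else the one with the smallest p. Promoter sequences and gene coordinates come from RefSeq for GRCm38.p6, the same assembly as mm10. Transcript lengths and transcript GC come from GENCODE, with a single transcript chosen for each gene. Reads themselves, proteins and mitochondrially encoded subunits were not analysed here.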

Additional observations from a re-analysis of the deposited data

Results flagged for a closer look

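In 6 of 144 groups of 4 libraries, over the genes given per library, 1 library lay far above the other 3, with a gap to the nearest that was past Dixon's 95% limit for 4 values. Chance flags about 1 group in 20. Notch2-mKO control replicate 3 was high for Atp5g2, at 402 CPM against 367 to 372 CPM in the other Notch2-mKO controls, and for Cox5b, at 568 CPM against 481 to 493 CPM. Atp5g2 was also high in WT diabetes replicate 3, at 321 CPM against 289 to 294 CPM, in the library that was the lowest of its group for 39 of the 45 genes. Cox7c was at 343 CPM in Notch2-mKO unloading replicate 3, against 263 to 265 CPM. Sdhc was at 288 CPM in Notch2-mKO diabetes replicate 1, against 265 to 269 CPM. Cox4i2, at few counts, was at 2.20 CPM in WT unloading replicate 4, against 0.879 to 0.966 CPM.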

How the results depend on the processing

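The median fold change of the 45 genes was below 0 in all 4 comparisons with control under every alternative run. Counts of called genes are given for diabetes and unloading of Notch2-mKO mice, then diabetes and unloading of WT mice, where the values as reported are 12, 12, 33 and 29. DESeq2 gave 15, 17, 33 and 30, upper-quartile scaling 14, 16, 33 and 33, no filter on low counts 12, 11, 32 and 26, removal of the GC and length trend 8, 11, 20 and 19, and limma on the authors' log2 values 8, 12, 23 and 18. Leaving out 1 library gave 4 to 12, 5 to 18, 28 to 36 and 24 to 32. Apart from the removal of the trend, the shares of all genes called under these alternatives are not given here. A changed count can therefore reflect a change in calling over all genes. Between diabetes and unloading, DESeq2 called 3 genes in WT mice, limma called 1 in Notch2-mKO mice, and leaving out 1 library gave 1 to 3 in WT mice; the unloading interaction gave 0 to 1. With the trend removed, 3 single values after unloading of WT mice changed sign and lost their call: Atp5g2 at 0.0802 (adjusted p = 0.571), Cox8b at 0.0026 (adjusted p = 0.986) and Atp5s at -0.19 (adjusted p = 0.516). Of 66 values followed for the 24 genes given per library, 19 others lost their call, and under limma 20 of 61 did. Over all 45 genes, 7 of 12, 9 of 12, 18 of 33 and 16 of 29 calls remained in the same direction with the trend removed. The cause was not tested.

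Replicate numbers did not pair the samples: across 60 pairs with the same number, the correlation of their deviations from the group means ran from -0.23 to 0.326 (median -0.00349), 7 were over 0.1 and 8 of 24 libraries correlated best with their own number. With the replicate number as a block, 9, 10, 32 and 28 of the 45 genes were called in the 4 comparisons with control. In genes simulated on the WT unloading design, 18% of changes of 0.5 on the log2 scale were called. Those genes were drawn from all genes tested and few were changed, so 18% is not a rate for the 45 genes. Genes that miss the threshold are still not shown to be unchanged.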
